A study of Saccharomyces cerevisiae with 8 samples.

Results

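The genes described here encode the cytosolic Hsp70, Hsp110, Hsp90 and Hsp104 chaperones of Saccharomyces cerevisiae. They are SSA1 (YAL005C), SSA2 (YLL024C), SSA3 (YBL075C), SSA4 (YER103W), SSE1 (YPL106C), SSE2 (YBR169C), FES1 (YBR101C), HSP82 (YPL240C), HSC82 (YMR186W) and HSP104 (YLL026W). They were picked by systematic ID and number 10 of the 6212 IDs in the deposited table. Of these genes, 8 had a value on all 8 arrays. SSA3 had values only on the 4 arrays that set the mutant against the wild type, and HSC82 had none on the 2 wild-type zinc arrays.

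Hsp70 proteins bind exposed hydrophobic stretches of unfolded proteins in a cycle driven by ATP. J proteins start the cycle and exchange factors, such as Fes1 and the Hsp110 proteins Sse1 and Sse2, end it by releasing ADP. Hsp90 acts later, on kinases, transcription factors and other clients that Hsp70 passes on. Hsp104 pulls proteins out of aggregates together with Hsp70. In yeast, SSA2 and HSC82 are known as constitutive genes, SSA3 and SSA4 as stress-induced ones, and SSA1 and HSP82 as genes that are expressed at rest and rise on heat shock. Hsf1 and the general stress factors Msn2 and Msn4 drive most of this induction.

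RNA of 4 kinds was compared in pairs on 8 spotted arrays with 2 dyes each: the pif1 mutant (pif1::KanMX, in BY4741) with and without zinc, and the wild type BY4741 with and without zinc. Pif1 is a helicase that acts on nuclear and mitochondrial DNA, and the series concerns the zinc tolerance of its mutant. Cells grew in YPD rich medium at 28 °C to an A660 of 0.6, and treated cells then spent 1 h in 5 mM ZnCl2. On the zinc arrays the untreated cultures also grew for 60 more minutes, while the labels of the mutant arrays without zinc state no such step. The 4 comparisons have 2 arrays each with exchanged dyes: zinc in pif1 (with zinc over without), zinc in the wild type, pif1 over wild type labelled with zinc, and pif1 over wild type labelled without zinc. The labels do not say how many clones of the mutant were used, or whether the 2 arrays of a comparison came from separate cultures, so p-values may measure technical spread only. In RNA of whole cultures, fewer cells that express a gene and less RNA per cell cannot be told apart. All values below are log2 ratios after each array was centred on its median. A gene passed when its limma adjusted p was below 0.05, and that is what rose, fell and higher or lower as a verdict mean below. Because an array gives ratios, the level of one gene is not set against that of another.

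Between 73.3% and 82.4% of the IDs had a value on an array. The direction of the ratios was read from genes outside the chaperones. ZRT1, a zinc importer that zinc represses through Zap1, lay at −1.70 and −2.18 as deposited on the pif1 zinc arrays and at −2.04 and −2.48 on the wild-type zinc arrays. PIF1 lay at −3.72 and −4.90 on the second mutant array with zinc and without zinc, and held placeholders on the first of each. The arrays of a comparison correlated at 0.573 for zinc in pif1 and 0.868 for zinc in the wild type. Those of the mutant comparisons correlated at 0.439 with zinc and 0.586 without zinc. Each pif1 zinc array correlated more with the wild-type zinc array of its number (0.734 and 0.743) than with the other pif1 zinc array. Wild-type zinc array 1 and mutant array 2 without zinc correlated at −0.365 across 4642 genes, the lowest value between any arrays. The labels state the dyes but not which way the deposited ratio runs, so the direction was kept on the values of ZRT1 and PIF1.

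The mutant arrays and the zinc arrays, as labelled, did not match. The strain difference in the zinc response can be taken from the zinc arrays (pif1 minus wild type) or from the mutant arrays (labelled with zinc minus labelled without zinc), and the 2 estimates should be alike if the labels hold and the cultures match. Across 3857 genes with a value on all 8 arrays they correlated at −0.251, and 55.9% of these genes had opposite signs. Of the 8 chaperone genes on all arrays, 6 had opposite signs. If the labels of the mutant arrays were exchanged, the second estimate would change its sign. The strain labels of the zinc arrays could not be checked with PIF1, which had no value there. Whether any label was exchanged was not tested. Values from the mutant arrays are therefore given by label, and the zinc responses and the main test of their difference use the zinc arrays alone.

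After zinc, HSP104 and the exchange factor genes SSE2 and FES1 rose in both strains, SSA4 and SSA2 rose in the wild type, and SSE1 fell in pif1. In pif1, 3 of 9 tested chaperone genes rose (HSP104, SSE2 and FES1) and 1 fell (SSE1), where 31.3% of all 4272 tested genes passed, 15.5% higher and 15.8% lower. In the wild type, 5 of 8 rose (SSA4, SSE2, HSP104, FES1 and SSA2) and 0 fell, where 30.3% of 4635 genes passed, 14.7% higher and 15.6% lower. Their median ratio was 0.24 in pif1 and 0.50 in the wild type, beside 0.01 and 0.00 over all genes tested in the pif1 and the wild-type comparison. With only the 4 zinc arrays in the fit, 2 passed in pif1 (HSP104 and SSE1), where 19% of all genes did, and 3 in the wild type (SSA4, SSE2 and HSP104), where 18.6% did, a choice made after the data were seen.

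**Figure D1:**
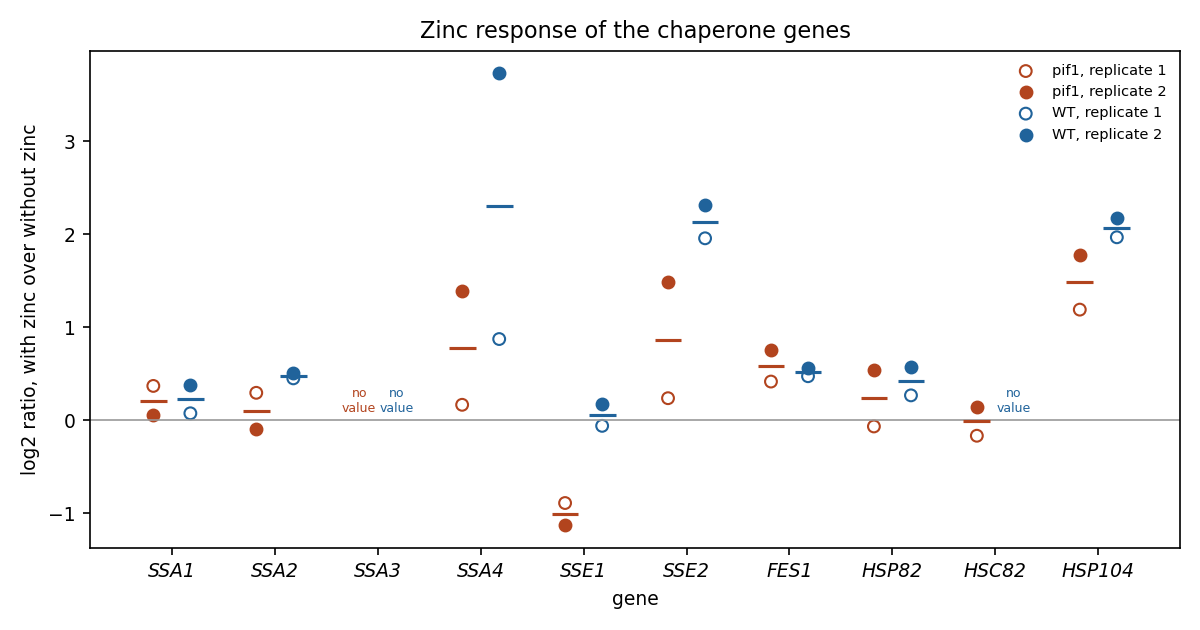
Log2 ratios with zinc over without zinc (vertical axis) for the 10 chaperone genes (horizontal axis), with pif1 on the left and the wild type (WT) on the right of each gene; open and filled circles are arrays 1 and 2, and bars are means. HSP104 lies above 1 on all 4 arrays, SSA4 spreads from 0.17 to 3.73, and SSE1 lies below 0 on both pif1 arrays.

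HSP104, the disaggregase, had ratios above 1 on all 4 zinc arrays. Its ratio was 1.19 and 1.78 on the pif1 arrays, against 1.97 and 2.18 on the wild-type arrays. All 4 values were high, and those of pif1 lay below those of the wild type without overlap. The mean was 1.49 ± 0.42 in pif1 (SD, n = 2, 2.80-fold, adjusted p = 0.000477) and 2.07 ± 0.15 in the wild type (n = 2, 4.21-fold, adjusted p = 7.85e-05). It ranked 67th of 4272 genes from the top in pif1 and 48th of 4635 in the wild type. The call held in each strain without either array.

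SSA4, the Hsp70 gene most tied to stress, had a wide spread between arrays. Its ratio was 0.17 and 1.39 on the pif1 arrays, against 0.87 and 3.73 on the wild-type arrays. Array 2 was the higher in each strain, and the ranges of the strains overlapped. The mean of 0.78 ± 0.87 in pif1 (SD, n = 2) did not pass (adjusted p = 0.314), with a 95% interval of −0.47 to 2.03. In the wild type SSA4 rose by 2.30 ± 2.02 (n = 2, adjusted p = 0.0143), a call that ended without array 2 (0.87, adjusted p = 0.203).

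SSA1 and SSA2, the Hsp70 genes expressed at rest, had means closer to 0 than SSA4 in each strain. SSA2 was at 0.29 and −0.09 on the pif1 arrays, against 0.45 and 0.51 on the wild-type arrays. Only the wild-type values passed, at a mean of 0.48 ± 0.04 (SD, n = 2, adjusted p = 0.0291), and with values not centred they did not (0.43, adjusted p = 0.0613), nor without either array (adjusted p = 0.173 and 0.221). SSA1 was at 0.37 and 0.05 in pif1, against 0.07 and 0.38 in the wild type, and passed in neither (adjusted p = 0.407 and 0.378). Its 95% interval ran from −0.20 to 0.62 in pif1 and from −0.18 to 0.64 in the wild type. SSA1 and SSA2 are near-identical copies, and so are HSP82 and HSC82. Whether their probes cross-hybridised was not tested.

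The Hsp110 genes, whose products release ADP from Hsp70, went separate ways. SSE2, the stress-induced copy, was at 0.24 and 1.49 on the pif1 arrays, against 1.96 and 2.32 on the wild-type arrays. The ranges did not overlap, and pif1 array 1 was the lowest. SSE2 rose by 0.86 ± 0.89 in pif1 (SD, n = 2, adjusted p = 0.0331) and by 2.14 ± 0.26 in the wild type (n = 2, 4.40-fold, adjusted p = 0.000559). Without array 2 the pif1 value was 0.24 and its call ended (adjusted p = 0.364).

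SSE1, the copy expressed at rest, was at −0.89 and −1.13 on the pif1 arrays, against −0.06 and 0.17 on the wild-type arrays. The strains did not overlap. SSE1 fell by 1.01 in pif1 (SD 0.17, n = 2, 2.02-fold, adjusted p = 0.000968), which held without either array. It was near 0 in the wild type, at 0.06 ± 0.17 (n = 2, adjusted p = 0.79), with a 95% interval of −0.25 to 0.36. In pif1 it ranked 184th of 4272 genes from the bottom.

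FES1, the exchange factor of another protein family, had nearly the same increase in each strain. Its ratio was 0.42 and 0.75 on the pif1 arrays, against 0.47 and 0.56 on the wild-type arrays, and these overlapped. FES1 rose by 0.58 ± 0.24 in pif1 (SD, n = 2, adjusted p = 0.0113) and by 0.52 ± 0.06 in the wild type (n = 2, adjusted p = 0.0195). The calls ended without array 2 in pif1 (0.42, adjusted p = 0.0615) and without array 1 (0.56, adjusted p = 0.127) or array 2 (0.47, adjusted p = 0.189) in the wild type.

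Neither Hsp90 gene passed after zinc. HSP82, the stress-induced copy, was at −0.07 and 0.54 on the pif1 arrays, against 0.27 and 0.58 on the wild-type arrays. The means were 0.24 ± 0.43 in pif1 (SD, n = 2, adjusted p = 0.368) and 0.42 ± 0.22 in the wild type (n = 2, adjusted p = 0.117). With the replicate number as a block the wild-type value passed (adjusted p = 0.018), and the pif1 value did not (adjusted p = 0.129). HSC82, the constitutive copy, was at −0.17 and 0.14 on the pif1 arrays (mean −0.01 ± 0.22, adjusted p = 0.953, 95% interval −0.34 to 0.31).

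On the wild-type zinc arrays HSC82 had no value under its own ID. It lies in a run of 75 neighbouring IDs, YMR176W to YMR250W, whose values there look displaced by 1 ID. Moving the run by 1 ID gave HSC82 ratios of 0.01 and 0.19, a mean of 0.10 ± 0.12 that did not pass (SD, n = 2, adjusted p = 0.615, 95% interval −0.20 to 0.41). The values of no other chaperone gene changed with this move.

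**Figure D2:**
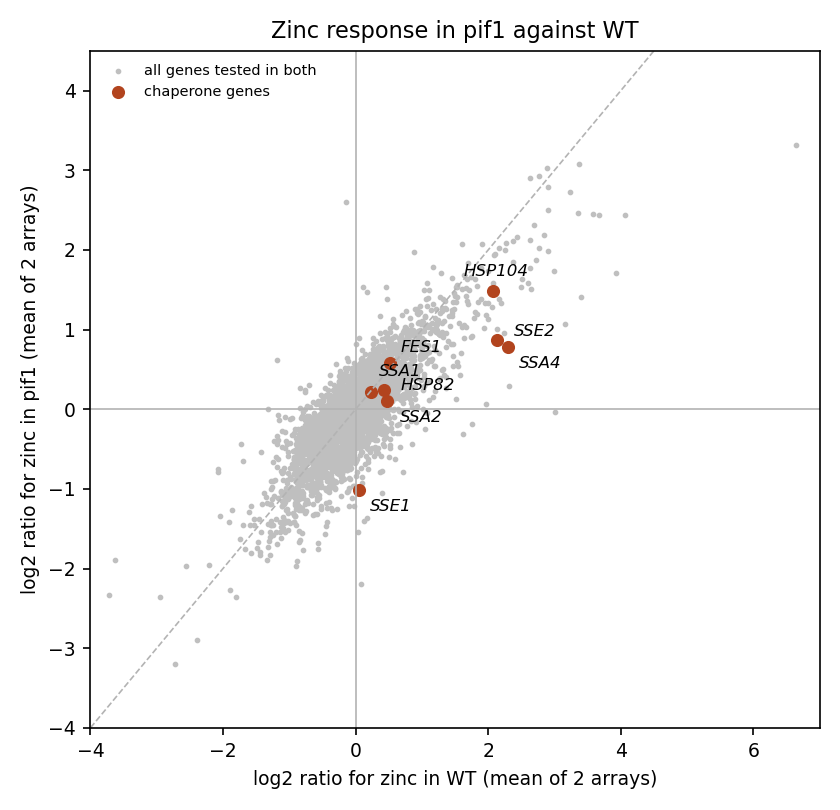
Mean log2 ratio for zinc in pif1 (vertical axis) against that in the wild type (horizontal axis), with grey points for all genes tested in both, red points for the chaperone genes and a dashed line of equal response. SSA4, SSE2, HSP104, SSE1 and SSA2 lie below the line, and FES1 at 0.58 in pif1 and 0.52 in the wild type lies close to it.

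The mean zinc response in pif1 lay below that in the wild type for 7 of the 8 genes, where it did for 48.1% of all genes tested, but 0 of 8 passed the limma test of the difference, where 0.269% of 4086 genes passed, 0.0734% higher and 0.196% lower (3 of 8 had an unadjusted p below 0.05, as did 468 of all genes tested). The median difference was −0.48, beside 0.02 over all genes tested. The largest was that of SSA4, at −1.52 (95% interval −3.29 to 0.24, adjusted p = 0.49). SSE2 differed by −1.27 (95% interval −2.10 to −0.45, adjusted p = 0.197), SSE1 by −1.07 (95% interval −1.50 to −0.63, adjusted p = 0.072) and HSP104 by −0.59 (95% interval −1.14 to −0.04, adjusted p = 0.413). With the replicate number as a block, 2 genes passed, SSE1 (adjusted p = 0.0277) and SSE2 (adjusted p = 0.0457), where 2.42% of all genes did.

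The mutant arrays gave the opposite sign for most of these genes. Labelled with zinc minus labelled without zinc, SSA4 was at 2.22, SSE2 at 0.67, HSP104 at 0.40 and SSE1 at 0.02. In the fit over all 8 arrays 0 of 10 genes passed on this estimate. With only the 4 mutant arrays in the fit, a choice made after the data were seen, SSA4 passed (adjusted p = 0.0148) and SSE2 did not (adjusted p = 0.298). FES1 (0.07 from the zinc arrays and 0.32 from the mutant arrays) and HSP82 (−0.19 and −0.05) kept their sign. What sets the 2 estimates apart was not tested.

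**Figure D3:**
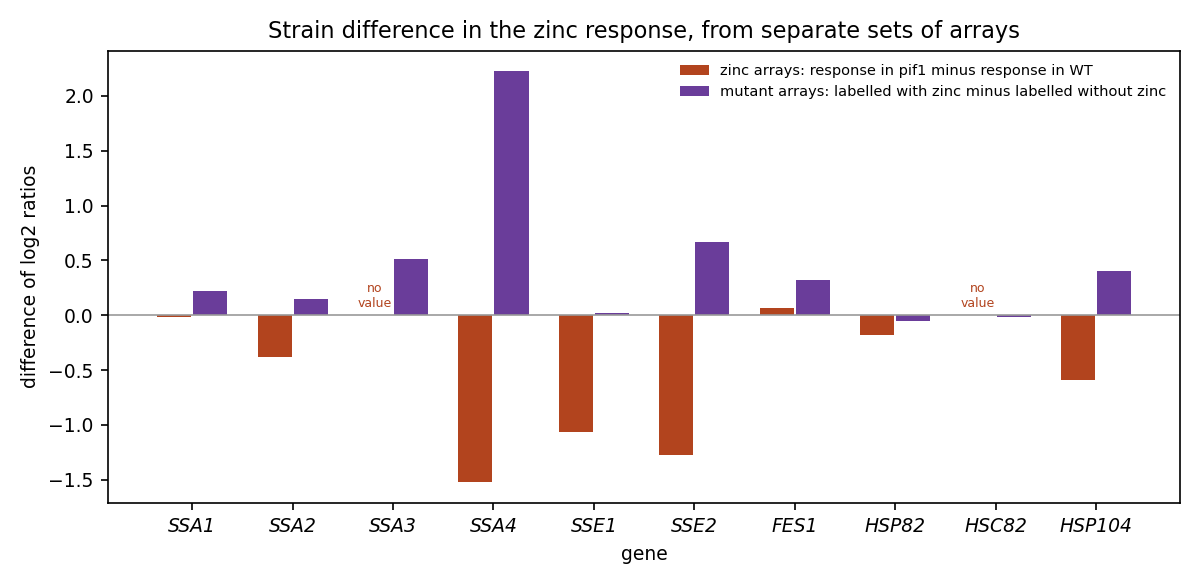
Strain difference in the zinc response (vertical axis, difference of log2 ratios) for each chaperone gene (horizontal axis), from the zinc arrays (red) and from the mutant arrays as labelled (purple). SSA4 is at −1.52 and 2.22, and SSE2 at −1.27 and 0.67.

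Between the strains, most chaperone genes had ratios below 0 on the arrays labelled without zinc, and SSA3 was higher in pif1 under both labels. On the arrays labelled with zinc 1 of 10 genes was higher (SSA3) and 0 lower, where 1.18% of 4657 genes passed, 0.988% higher and 0.193% lower, and 3 of 10 had an unadjusted p below 0.05, as did 457 of all genes tested. On those labelled without zinc 1 of 10 was higher (SSA3) and 1 lower (FES1), where 2.03% of 4722 genes passed, 1.44% higher and 0.593% lower, and 6 of 10 had an unadjusted p below 0.05, as did 691 of all genes tested. With the replicate number as a block 4 of 10 passed without zinc (SSA4 and HSP104 were also lower), where 6.16% of all genes did. Below 0 on both arrays lay 6 of 10 genes with zinc (28.9% of all genes) and 9 of 10 without zinc (32.3% of all genes). The median was −0.15 with zinc and −0.33 without zinc, beside −0.01 and 0.00 over all genes tested.

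**Figure D4:**
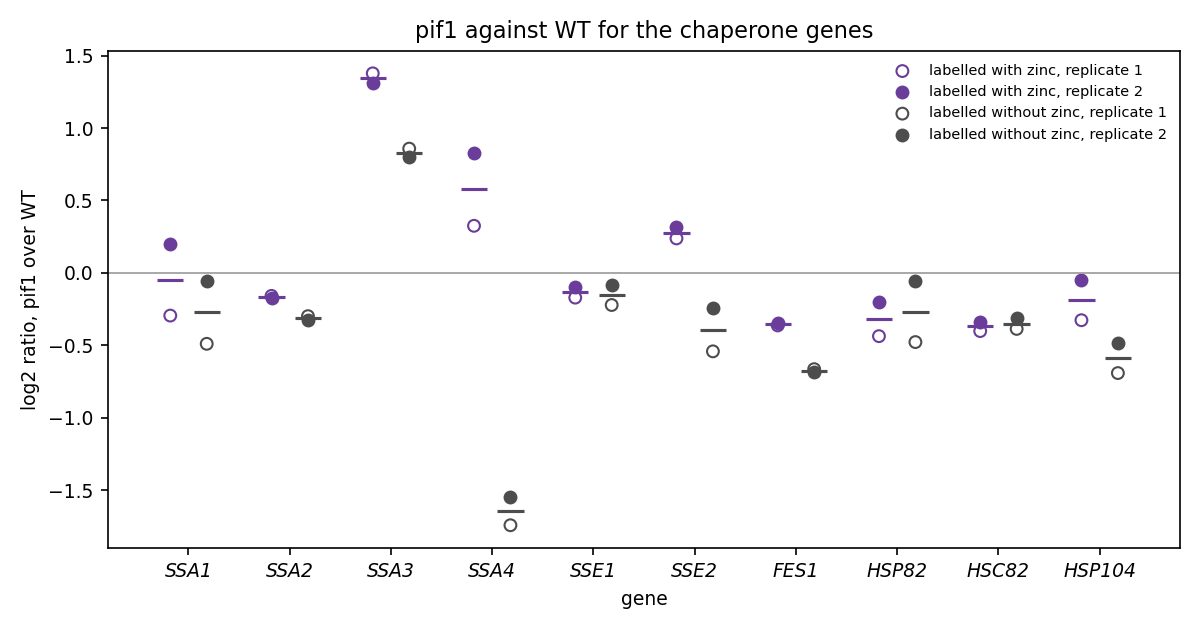
Log2 ratios of pif1 over the wild type (vertical axis) for the 10 chaperone genes (horizontal axis), with arrays labelled with zinc on the left and without zinc on the right of each gene; open and filled circles are arrays 1 and 2, and bars are means. SSA3 lies above 0.79 on all 4 arrays, and SSA4 lies above 0 on the arrays labelled with zinc and below −1.5 on those labelled without zinc.

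SSA3, an Hsp70 gene that is known to be silent in cells growing on glucose and to come on under stress and late in growth, had ratios of 1.38 and 1.31 labelled with zinc, and 0.86 and 0.80 labelled without zinc. These 4 values were all well above 0, and the arrays of each pair lay close together. With no value on the zinc arrays, the spread used for SSA3 came from the 4 mutant arrays alone. SSA3 was higher in pif1 by 1.34 ± 0.05 with zinc (SD, n = 2, 2.54-fold, adjusted p = 0.0108) and by 0.83 ± 0.04 without zinc (n = 2, 1.77-fold, adjusted p = 0.0384). With zinc it ranked 9th of 4657 genes from the top. Neither call held with 1 array left out, but hardly any gene passed in that setting, so it cannot test them. The call without zinc ended with a term for the dye (adjusted p = 0.069).

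FES1 had ratios below 0 on all 4 mutant arrays, at −0.36 and −0.35 labelled with zinc, and −0.67 and −0.69 labelled without zinc. It passed without zinc, where it fell by 0.68 (SD 0.02, n = 2, adjusted p = 0.0431), and did not pass with zinc (−0.36 ± 0.01, adjusted p = 0.375). With zinc it passed as lower with arrays scaled to one spread (adjusted p = 0.0292) or set to one distribution (adjusted p = 0.0222). The call without zinc ended with a term for the dye (adjusted p = 0.0662). It did not hold without either array, where hardly any gene passed, so that setting cannot test it.

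SSA4 stood out by the distance between the labels. It was at 0.33 and 0.83 on the arrays labelled with zinc, against −1.74 and −1.55 on those labelled without zinc, and the ranges lay on opposite sides of 0. Without zinc its mean of −1.65 ± 0.14 was the 5th lowest of 4722 genes, yet it did not pass (SD, n = 2, adjusted p = 0.194), in a fit that pools the spread of all 8 arrays, the zinc arrays of SSA4 included. It passed with the replicate block (adjusted p = 0.0358), with only the 4 mutant arrays in the fit (adjusted p = 0.00287) and with all arrays scaled to the same spread (adjusted p = 0.0159). With zinc its mean of 0.58 ± 0.36 did not pass (n = 2, adjusted p = 0.94). It passed as higher there with only the comparison's own arrays in the fit (adjusted p = 0.00791).

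HSP104 was at −0.33 and −0.05 labelled with zinc, against −0.69 and −0.48 labelled without zinc, all below 0. Without zinc its mean of −0.59 ± 0.15 did not pass (SD, n = 2, adjusted p = 0.142), but it did with the replicate block (adjusted p = 0.0245) and with only the 4 mutant arrays in the fit (adjusted p = 0.0494). SSE2 was at 0.24 and 0.32 labelled with zinc, against −0.54 and −0.25 labelled without zinc, on opposite sides of 0, and passed in neither (adjusted p = 0.938 and 0.556).

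The other genes had means below 0 in pif1 on the mutant arrays and did not pass in the main fit. HSC82 had the most even values, at −0.40 and −0.34 with zinc and −0.39 and −0.31 without zinc (adjusted p = 0.407 and 0.294). With zinc it passed as lower with arrays scaled to one spread (adjusted p = 0.04) or set to one distribution (adjusted p = 0.0283). Without zinc it passed as lower with one distribution (adjusted p = 0.048). HSP82 was at −0.44 and −0.20 with zinc and at −0.48 and −0.06 without zinc (adjusted p = 0.73 and 0.581). SSA2 was at −0.16 and −0.17 with zinc and at −0.30 and −0.32 without zinc (adjusted p = 0.9 and 0.339). SSA1 ran from −0.49 to 0.20 over the 4 mutant arrays, and SSE1 from −0.22 to −0.09.

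Array 2 gave the higher ratio for most of these genes. It did so for 6 of 9 genes with zinc in pif1, 8 of 8 with zinc in the wild type, 8 of 10 on the mutant arrays labelled with zinc and 7 of 10 on those labelled without zinc. The share over all genes is not given here, so these counts only describe the chaperone genes. Across 3857 genes with a value on all 8 arrays, the difference between the arrays of a comparison correlated at 0.438 to 0.552 among the 4 comparisons. The labels give Cy5 to the first-named RNA on array 1 of the zinc comparisons and on array 2 of the mutant comparisons, so the shared direction follows the array number and not the stated dye. HSP82 and HSP104 were higher on array 2 in all 4 comparisons, by 0.21 to 0.61. SSA4 was too, by 0.19 to 2.86. SSA1 and SSA2 were lower on array 2 in pif1 after zinc, by 0.31 and 0.39, where array 2 minus array 1 was 0.31 and 0.06 in the wild type.

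**Figure D5:**
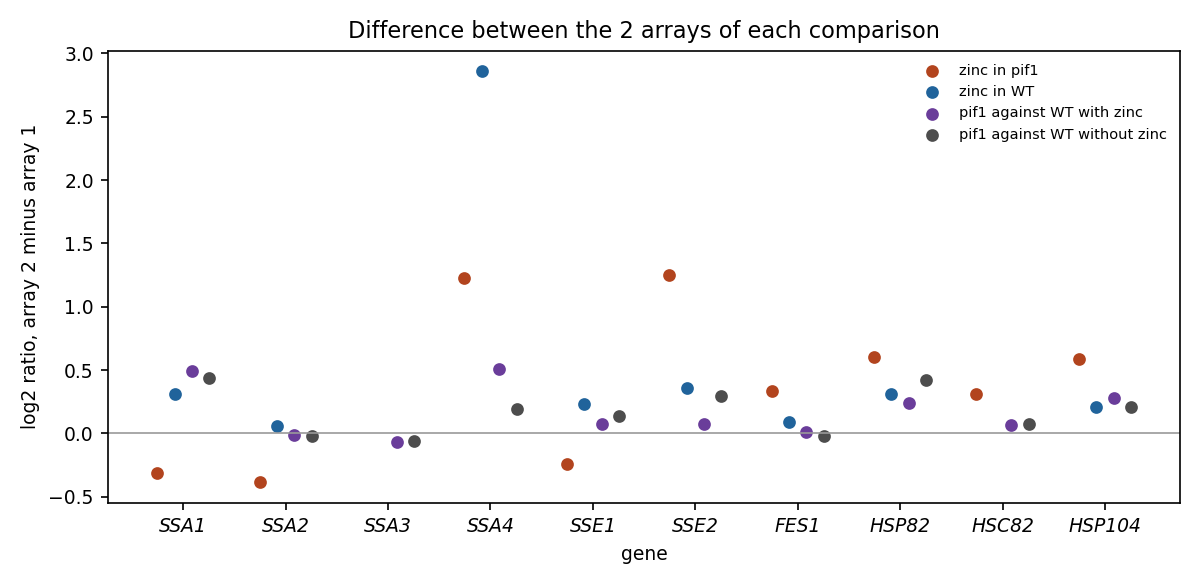
Log2 ratio on array 2 minus that on array 1 (vertical axis) for each chaperone gene (horizontal axis), with 1 point per comparison. Most points lie above 0, and the farthest are SSA4 with zinc in the wild type (2.86) and in pif1 (1.23) and SSE2 with zinc in pif1 (1.25).

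The partners of these chaperones were followed through lists of named genes, whose counts are to be read against the shares over all genes after zinc (15.5% higher and 15.8% lower in pif1, 14.7% higher and 15.6% lower in the wild type) and against all-gene medians of 0.01 and 0.00. Of 12 Hsp90 co-chaperones, 3 rose and 2 fell in pif1 after zinc, and 4 rose and 2 fell in the wild type. The median was 0.20 in pif1 and 0.12 in the wild type. CPR6, a cyclophilin bound to Hsp90, rose by 0.80 ± 0.09 in pif1 and by 0.95 ± 0.02 in the wild type (SD, n = 2 each). SBA1, the p23 homologue, rose by 0.82 ± 0.38 in pif1 and 0.51 ± 0.18 in the wild type. PPT1, a phosphatase that acts on Hsp90, fell by 1.35 in pif1 and by 1.10 in the wild type.

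STI1, which links Hsp70 to Hsp90, fell in pif1, as SSE1 did, and was named after its values were seen. It was at −0.73 and −0.83 on the pif1 arrays, against 0.34 and 0.46 on the wild-type arrays. STI1 fell by 0.78 in pif1 (SD 0.07, n = 2, adjusted p = 0.00259) and rose by 0.40 ± 0.08 in the wild type (n = 2, adjusted p = 0.0436). In pif1 STI1 did not pass with arrays set to one distribution (−0.53, adjusted p = 0.0646) or with only the comparison's own arrays (adjusted p = 0.0743). Of the 12 co-chaperones it alone passed the test of the difference between the strains (−1.18, adjusted p = 0.0473; 0.015 with the replicate block). The difference also exceeded the 2-fold minimum. Under the other alternatives tried for the zinc arrays it did not pass (adjusted p = 0.0546 to 0.636). It was −1.28 without array 1 and −1.08 without array 2, and from the mutant arrays it was 0.006. The rise in the wild type was also lost with values not centred, with arrays scaled to one spread or set to one distribution, without either array, with the dye term and with only the 4 zinc arrays (adjusted p = 0.0671 to 0.306). On the mutant arrays it was at −0.45 ± 0.16 with zinc and −0.45 ± 0.01 without zinc, and did not pass (adjusted p = 0.193 and 0.136). On the arrays labelled without zinc CPR6 was the co-chaperone that passed, at −0.70 ± 0.09 (n = 2, adjusted p = 0.0324).

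Among J proteins and other cytosolic Hsp70 partners, 2 of 8 rose and 1 fell in pif1, and 2 of 10 rose and 0 fell in the wild type. The J protein SIS1 rose by 0.52 ± 0.03 in pif1 and by 0.46 ± 0.13 in the wild type. APJ1, another J protein, was at 0.13 ± 0.08 in pif1 (adjusted p = 0.487) and rose by 0.90 ± 0.06 in the wild type, and its difference did not pass (adjusted p = 0.112). JJJ1, the J protein of late ribosome assembly, fell by 0.56 in pif1 and was at −0.43 ± 0.47 in the wild type (adjusted p = 0.0996). The list's median was 0.12 in pif1 and −0.01 in the wild type. YDJ1, a major J protein of the cytosol, had no value on any array.

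Chaperones that work on new proteins lay below 0. Of 4 genes of the Hsp70 system at the ribosome, 3 fell in each strain: SSB2 (−0.74 ± 0.39 in pif1 and −0.93 ± 0.04 in the wild type), SSZ1 (−0.80 ± 0.47 and −0.70 ± 0.02) and SSB1 (−0.56 ± 0.03 and −0.51 ± 0.25). The list's median was −0.65 in pif1 and −0.61 in the wild type. Of 8 subunits of TRiC, the chaperonin that folds actin and tubulin, 6 fell in pif1 (median −0.59) and 0 passed in the wild type (median −0.15), where 1 had an unadjusted p below 0.05. In pif1, 8 passed with the replicate block, where 44.8% of all genes did, and 4 with only the 4 zinc arrays, where 19% did. The count was 0 with arrays scaled to one spread (9.67% of all genes), set to one distribution (10.1%) or with the comparison's own arrays (12.3%). In the wild type 1 passed with the block, where 42.7% of all genes did. CCT8 fell by 0.73 in pif1, CCT4 by 0.65 and CCT2 by 0.65. These 3 genes were between −0.17 and −0.14 in the wild type. For 0 of the 8 subunits did the difference between the strains pass, while 5 had an unadjusted p below 0.05 (median −0.48).

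Some stress chaperones of other compartments also rose. HSP78, the mitochondrial relative of HSP104, rose by 1.35 ± 0.62 in pif1 and by 1.85 ± 0.18 in the wild type. HSP10, the partner of the chaperonin Hsp60, rose by 0.86 ± 0.02 in pif1 and 0.66 ± 0.25 in the wild type, and with HSP78 made 2 of 3 in that list in each strain (median 0.86 and 0.66). Of 7 tested Hsp70 genes and partners of the endoplasmic reticulum and mitochondria, 1 rose in pif1 (median 0.22) and 3 in the wild type (median 0.51). The luminal Hsp70 KAR2 rose by 0.85 ± 0.42 in pif1 and by 0.72 ± 0.27 in the wild type. Its exchange factor SIL1 was at 0.38 ± 0.31 in pif1 (adjusted p = 0.158) and rose by 1.26 ± 0.30 in the wild type. MDJ1, the J protein of mitochondria, was at 0.30 ± 0.40 in pif1 (adjusted p = 0.226) and rose by 0.58 ± 0.21 in the wild type.

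Of 4 small heat shock proteins and sequestrases, which gather misfolded proteins for Hsp104 and Hsp70, 3 rose in each strain (median 1.29 in pif1 and 1.31 in the wild type). HSP26 rose by 3.31 ± 0.05 in pif1 and 6.64 ± 0.37 in the wild type, a difference that passed (−3.32, adjusted p = 0.00775) but not without array 1 (adjusted p = 0.0785), with arrays scaled to one spread (−2.79, adjusted p = 0.202) or set to one distribution (−0.84, adjusted p = 0.961). It was also higher in pif1 on the mutant arrays labelled with zinc (2.07 ± 0.84, adjusted p = 0.00913), and labelled with zinc minus labelled without zinc it was at 2.86, of the opposite sign and also past the threshold (adjusted p = 0.0231). BTN2 rose by 1.63 ± 0.83 in pif1 and 1.67 ± 0.13 in the wild type, and HSP42 by 0.95 ± 0.17 and 0.95 ± 0.02. The stress factor genes themselves did not pass: MSN2 was at 0.00 ± 0.46 in pif1 and −0.03 ± 0.23 in the wild type, MSN4 at 0.38 ± 0.39 and 0.26 ± 0.32, a list median of 0.19 and 0.11. HSF1 had no value on any array. On the mutant arrays, 0 genes of the J protein, ribosome, compartment, Hsp60, TRiC and stress factor lists passed in either comparison by limma, while up to 4 of a list had an unadjusted p below 0.05.

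Over the 8 arrays, the genes outside these 10 that lay nearest to HSP104 were MRX18, FPT1 and HSP78, at Euclidean distances of 0.486, 0.491 and 0.557 on the log2 scale among 3849 genes with all values. Pearson's r with HSP104 over the 8 arrays was 0.993 for each of them. RPT4, TPM1 and ARF3 were nearest to HSP82, at distances of 0.393 to 0.423 (r of 0.922 to 0.934). SSA4 had no close match: UBI4, the polyubiquitin gene, ROQ1 and HSP78 were the nearest, at 2.79 to 2.93 (r of 0.773 to 0.895). The arrays share RNAs between comparisons, so these values only describe the arrays.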

How the data were processed

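The values are log2 ratios deposited by the authors, with 1 column for each array. The authors dropped small spots (a diameter below 120 um) and dim ones (below 100 units in Cy3 and Cy5), per the labels, which also give 8 ug of total RNA and an oligo(dT) primer. Scanner, background correction, normalization and log base are not given in the sources used here. The base was taken as 2 from the size of the values, and the authors' centring is unknown. The column medians of the zinc arrays were 0.07 and −0.04 in pif1 and −0.06 and −0.04 in the wild type. Those of the mutant arrays were −0.03 and −0.03 with zinc and −0.03 and −0.01 without zinc. Two-colour spot brightness was not used, so depth is known only as the share of IDs with a value.

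PIF1 had 2 placeholders (an absolute value above 16), which were treated as missing, and the median of each array was subtracted. The centred values were fitted with limma 3.58.1 in R 4.3.3 (lmFit and eBayes, 1 coefficient per comparison, a spread pooled over 8 arrays). A gene was tested where both arrays of the comparison measured it. Where a gene lacks other arrays, as SSA3 and HSC82 do, its spread rests on fewer. Benjamini-Hochberg adjustment ran over all genes tested, with 0.05 as threshold. The fit was tested on simulated data. With 2 arrays per comparison, their number limits the precision.

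Same-numbered arrays deviated together. Across the 3857 genes with a value on all 8 arrays, the difference between arrays 1 and 2 correlated at 0.438 or more in each of the 6 pairs of comparisons. The labels do not say what the number stands for. The block is a term for the array number shared by all comparisons.

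Symbols come from NCBI's R64 table by locus tag, which matched 5639 of 6212 IDs. Coordinates, promoter sequences and protein sequences were not used here. The genes, the 8 partner lists and the tests were chosen with earlier results of these data known. All 10 genes are named; of each list, up to 3 genes that passed, by size, in either zinc comparison; and the 3 genes nearest to SSA4, HSP104 and HSP82. The call changes of STI1, TRiC and HSP26 under the same alternatives were looked up after their values were seen. Alternatives covered centring, scaling, the arrays in the fit, missing values, each array left out, the block, the dye, a 2-fold minimum and the displaced run.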

Additional observations from a re-analysis of the deposited data

Results flagged for a closer look

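SSA4 was above 0 on both mutant arrays labelled with zinc (0.33 and 0.83) and below 0 on both labelled without zinc (−1.74 and −1.55), a difference of 2.22. SSE2 did the same, at 0.24 and 0.32 with zinc and −0.54 and −0.25 without zinc, a difference of 0.67. Over all 8 arrays neither difference passed (limma adjusted p = 0.783 for SSA4 and 1 for SSE2). On the zinc arrays the strain difference ran the other way for both genes, at −1.52 and −1.27.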

How the results depend on the processing

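HSP104 rose in both strains, SSE2 rose in the wild type and SSE1 fell in pif1 under every alternative tried. These alternatives all took the ratios from the same zinc arrays. The mutant arrays, as labelled, gave strain differences of 0.40 for HSP104, 0.67 for SSE2 and 0.02 for SSE1. Those from the zinc arrays were −0.59, −1.27 and −1.07. With all arrays scaled to one spread or set to one distribution, or at a 2-fold minimum, or with only the 4 zinc arrays in the fit, 2 genes passed in pif1 and 3 in the wild type. In these settings 8.03% to 19% of all genes passed in pif1 and 7.77% to 18.6% in the wild type. Leaving out an array gave 2 to 4 in pif1 and 2 to 3 in the wild type. For pif1 against wild type with zinc, 3 passed with arrays scaled or set to one distribution (SSA3 higher, FES1 and HSC82 lower). Of all genes 7.97% and 6.83% passed in these settings. With only the comparison's own arrays 2 passed (SSA3 and SSA4, both higher), where 5.73% of all genes did. Among genes with a value on all 8 arrays 0 passed, but SSA3 was not tested there. Without zinc, 5 passed with one distribution (HSC82 among them), where 9.09% of all genes did. With one spread, the comparison's own arrays, the 4 mutant arrays or the replicate block 4 passed. The shares of all genes were 9.32%, 12.5%, 4.49% and 6.16% there, against 2.03% in the main fit. With the dye term or a 2-fold minimum 0 passed, where 1.5% and 0.889% of all genes did. Among genes on all 8 arrays 1 passed (FES1), again with SSA3 not tested. With an array left out hardly any gene passed in either comparison, so that setting cannot test these calls. For the difference between the strains, 2 passed with the replicate block, 1 without either array (SSA4 without replicate 1, SSE2 without replicate 2), and 1 from the mutant arrays fitted alone (SSA4). The block changed no other call of these genes than those given above. The share of all genes that passed, 31.3% for zinc in pif1 and 30.3% in the wild type, ran from 8.03% to 44.8% and from 7.77% to 42.7%, lowest at a 2-fold minimum and highest with the replicate block. For pif1 against wild type it ran from 0.0215% to 7.97% with zinc and from 0% to 12.5% without zinc, and for the difference from 0% to 2.42%.

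Signs turned mostly near 0, except where the strain difference was taken from the mutant arrays or as the mean of both estimates. There the largest difference, that of SSA4, also turned, from −1.52 to 2.22 on the mutant arrays. In pif1, HSC82 was at 0.006 with values not centred, and leaving out an array gave −0.17 to 0.14 for HSC82, −0.0915 to 0.29 for SSA2 and −0.0675 to 0.54 for HSP82. It gave −0.061 to 0.17 for SSE1 in the wild type and −0.30 to 0.20 for SSA1 in pif1 against wild type with zinc. The difference turned to 0.0525 for SSA1 with values not centred and to −0.00974 for FES1 with one spread, and leaving out an array gave −0.33 to 0.29 for SSA1 and −0.0575 to 0.19 for FES1. Taken from the mutant arrays, it was 0.22 for SSA1, 0.145 for SSA2, 2.22 for SSA4, 0.019 for SSE1, 0.67 for SSE2 and 0.40 for HSP104, and as the mean of both estimates 0.10 for SSA1 and 0.35 for SSA4. The cause was not tested.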
